A study of Homo sapiens with 3 samples.

Results

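The 37 genes of the human mitochondrial genome were followed in A375, an established human melanoma cell line, across 3 poly(A) RNA sequencing libraries. They are every gene whose symbol starts with MT- among the 58037 genes of the count table. The set holds 13 mRNAs, 2 rRNAs and 22 tRNAs, and these classes are kept apart throughout. The rule used no measured value. Of the 37 genes, 16 had a mean normalised count of at least 20 over the 3 libraries and so passed the filter on low values, namely all 13 mRNAs, both rRNAs and 1 tRNA, beside 14413 genes in the whole table.

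The study asked how melanoma cells respond to lipids and other products released by skin adipocytes of young or old donors. Control A375 cells were kept in serum-free DMEM, YA-A375 cells in the secretome of young adipocytes and OA-A375 cells in the secretome of old adipocytes. A secretome is serum-free DMEM that had stood on adipocytes, which were grown in culture from preadipocytes of human subcutaneous fat with insulin, dexamethasone, indomethacin and IBMX, and the number of donors behind each library is not given in the sources used here. In the study's donor list the old donors were all male, mostly from a biobank and from varied body sites. The young donors were mostly female, purchased and from the chest. Which of them were used here is not given, so donor age, sex, body site and source cannot be told apart. Exposure is stated as 24 h for the sequencing experiment, whereas the treatment protocol shared by the samples gives 24 to 48 h. A375 is a single line, all groups were serum-free, and medium taken from cells that were not adipocytes was not among the groups, so conditioning by any cell and conditioning by adipocytes cannot be told apart.

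There was 1 library per group. No value below has a replicate spread, no test between conditions was possible, and the 95% intervals in brackets are counting intervals that compare libraries and not conditions. They are exact Clopper-Pearson intervals for folds, and normal approximations on the log odds ratio for changes in the ratio of members within a library. Total counts were 21448195 in control, 21306558 in YA-A375 and 18089008 in OA-A375. Folds are ratios of normalised counts, that is counts divided by DESeq2 size factors, and a gene is called higher or lower where its fold passes 1.2 in that direction. Among markers of the melanoma lineage, PRAME had 3262 counts in control, 3645 in YA-A375 and 3388 in OA-A375, MITF had 1221, 764 and 881, and S100B had 843, 591 and 550. SOX10 was listed at 0 in every library, and TYR, DCT and PMEL had between 0 and 10 counts. Of 12 adipocyte markers, 10 had a count in control, 7 in YA-A375 and 6 in OA-A375, with summed levels of 32.9, 59.4 and 23.3 CPM (counts scaled to a common library total). PLIN4 and LPL, which other cells express too, made up most of that sum in each library. LEP and CIDEA were at 0 in every library and ADIPOQ had 1 count in control and 0 in the others. Of the 4 adipocyte markers that passed the filter, 4 were higher and 0 lower in YA-A375 than in control. In OA-A375 2 were higher and 1 lower, with log2 fold changes from -3.27 to 2.64. Of all tested genes 17.4% were called higher in YA-A375, and 21.1% higher and 21.5% lower in OA-A375. Of 10 fibroblast and preadipocyte markers, 8, 9 and 9 had a count, with summed levels of 11.5, 18.5 and 14.9 CPM. Single members of this list went different ways. DCN, a matrix proteoglycan, had 13 counts in control, 138 in YA-A375 and 24 in OA-A375, PDGFRA had 76, 20 and 51, and PDPN had 8, 15 and 43. COL1A2 and COL3A1 stayed between 0 and 2 counts and DPT at 0. The summed adipocyte and fibroblast markers and the mitochondrial mRNAs were thus all highest in the YA-A375 library, and the part of these markers in the results was not tested.

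Mitochondrial DNA is a small circle read from both strands into long precursors, which are cut at the tRNAs that punctuate them to release mRNAs and rRNAs. The mRNAs encode core subunits of respiratory complexes I, III and IV and of the ATP synthase, which is complex V, while the rRNAs and tRNAs serve the mitochondrion's own ribosomes. Transcription depends on a single RNA polymerase, POLRMT, with the factors TFAM and TFB2M, and most of the mRNAs are then given short poly(A) tails. In some of them the tail also completes the stop codon, since the genome encodes only its first base or bases. Melanomas differ in how far they rely on respiration, and the nuclear coactivator PPARGC1A is known for raising mitochondrial gene expression in a subset of them.

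The annotated 3′ ends show this dependence on the tail, and they are printed because a poly(A) library reads these RNAs through their tails. Of the 13 mRNAs, 6 stop short of a full codon and 7 end in one. All are on chromosome M, from GENCODE release 29 on GRCh38, with the last 30 bases in the direction of the gene and the bases of the stop codon that the genome encodes in capitals. MT-ND1 (chrM:3307-4262, plus strand) ends in the first 2 bases of its stop codon. MT-ND2 (chrM:4470-5511), MT-CO3 (chrM:9207-9990), MT-ND3 (chrM:10059-10404), MT-ND4 (chrM:10760-12137) and MT-CYB (chrM:14747-15887), all on the plus strand, end in its first base.
MT-ND1: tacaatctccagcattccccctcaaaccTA
MT-ND2: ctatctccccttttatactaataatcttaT
MT-CO3: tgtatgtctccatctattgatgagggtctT
MT-ND3: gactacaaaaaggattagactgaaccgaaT
MT-ND4: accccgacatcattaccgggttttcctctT
MT-CYB: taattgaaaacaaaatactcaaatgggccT

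MT-CO1 (chrM:5904-7445, plus strand) and MT-ND6 (chrM:14149-14673, minus strand) carry whole final codons that occur at no other mRNA end of the set. MT-ND6 is the only mRNA of the 13 on the minus strand. Its base composition is the mirror of the others, with 35.6% G and 7.05% C, whereas MT-ND5, its neighbour on the opposite strand, has 10.6% G and 34.3% C.
MT-CO1: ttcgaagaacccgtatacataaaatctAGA
MT-ND6: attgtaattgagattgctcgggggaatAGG

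Overlapping reading frames also bear on the counts. MT-ATP8 (chrM:8366-8572) and MT-ATP6 (chrM:8527-9207) share 46 bases, which is 22.2% of MT-ATP8, and MT-ND4L (chrM:10470-10766) shares 7 bases with MT-ND4. The shared bases are in capitals, each with 7 flanking bases on either side, from chrM:8520-8579 and chrM:10753-10773 on the plus strand. How the counting treated reads in the shared bases is not given in the sources used here, so the split within these pairs is uncertain.
MT-ATP8 and MT-ATP6: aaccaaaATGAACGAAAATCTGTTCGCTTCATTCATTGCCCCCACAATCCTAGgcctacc
MT-ND4L and MT-ND4: tactccaATGCTAAaactaat

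Among the mRNAs, level per length (CPM divided by gene length in kilobases) spanned more than a factor of 4 within each library. MT-CO1, the catalytic core of complex IV, was highest with 2198 in control, 3471 in YA-A375 and 2212 in OA-A375. In control the order below it was MT-CO3 at 2075, MT-CO2 at 1903, MT-ND4 at 1697 and MT-ATP6 at 1616, then MT-CYB at 1097. The remaining 7 mRNAs lay between 342 for MT-ND6 and 800 for MT-ATP8. The 3 mRNAs of complex IV and MT-ND4 and MT-ATP6 therefore formed the upper part of the range in every library. In YA-A375 MT-ND4 reached 3142 and passed MT-CO2 at 3093 and MT-CO3 at 2846. In OA-A375 MT-CYB, at 934, stood below MT-ND4L at 985, whereas MT-CYB stood above it in the other libraries. MT-ND6 was the lowest mRNA throughout, at 342 in control, 770 in YA-A375 and 493 in OA-A375. With 1 library each, no spread is available to say which neighbours in this order differ.

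**Figure D1:**
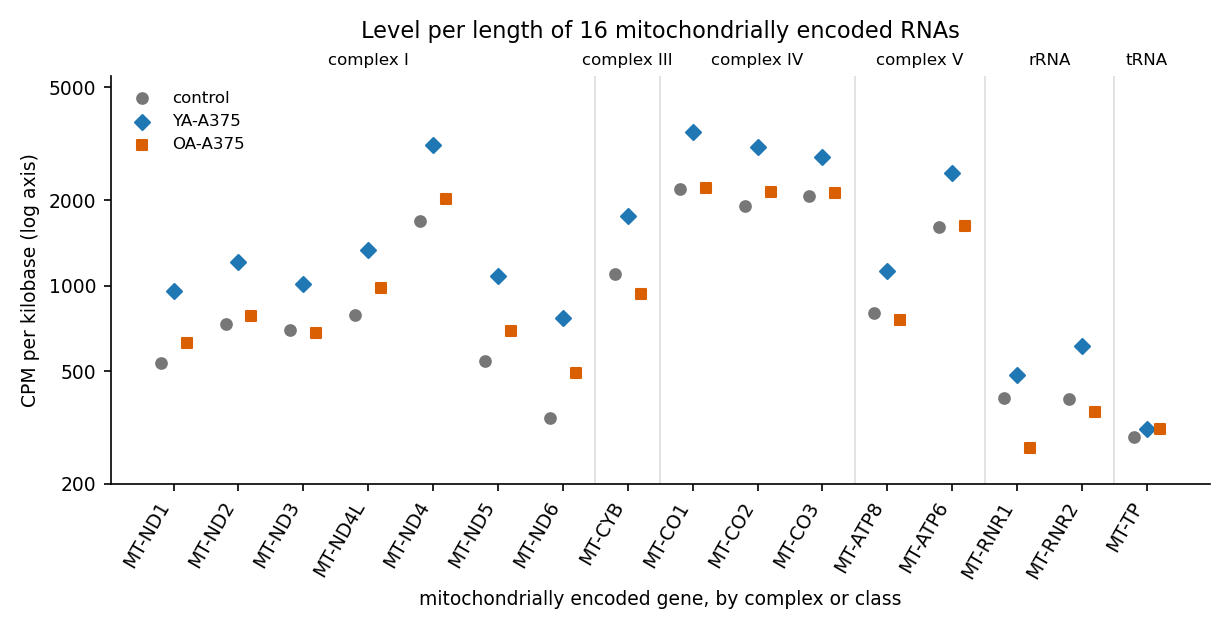
Level per length of the 16 mitochondrially encoded RNAs that passed the filter, in CPM per kilobase on a log axis, with 1 point per library (grey circles control, blue diamonds YA-A375, orange squares OA-A375) and genes grouped by complex or class. The mRNAs of complex IV, MT-ND4 and MT-ATP6 lie highest, and the YA-A375 point is above the other points of the gene for all 13 mRNAs and both rRNAs.

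The first comparison asked whether the mitochondrial mRNAs were higher in YA-A375 than in control. All 13 were higher and none was lower, beside 17.4% of the 14413 genes tested called higher and 16.4% called lower. Folds ran from 1.37 for MT-CO3 to 2.24 for MT-ND6, against a median log2 fold change of -0.02 over all tested genes. Summed over the 13 mRNAs the fold was 1.64 (1.64 to 1.65).

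In OA-A375 against control, 3 of the 13 mRNAs were higher and none was lower, beside 21.1% of tested genes called higher and 21.5% called lower. The share called higher was thus near that of all tested genes. The 3 were MT-ND4L, MT-ND5 and MT-ND6, of complex I, whose other members MT-ND1, MT-ND2, MT-ND3 and MT-ND4 were called neither way. The folds ran from 0.856 for MT-CYB to 1.45 for MT-ND6, with a summed fold of 1.08 (1.07 to 1.08), and lay on both sides of 1, with 10 of the 13 above it. The interval held 1 for MT-ND3 and MT-ATP6, so that for these genes no difference from control was detectable at this depth.

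YA-A375 against OA-A375 was compared directly as well. All 13 mRNAs were higher in YA-A375 and none lower, beside 23.0% of tested genes called higher and 21.5% called lower. Folds ran from 1.33 for MT-CO3 to 1.86 for MT-CYB, and the summed fold was 1.53 (1.52 to 1.54). The comparisons share libraries in pairs, so none of them is independent of the others. Folds of normalised counts are relative to the other RNAs of a library and are not amounts per cell. In these bulk samples, a change in every cell and a change in part of the cells cannot be told apart. In a poly(A) library neither can the amount of an RNA and the length or presence of its tail.

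**Figure D2:**
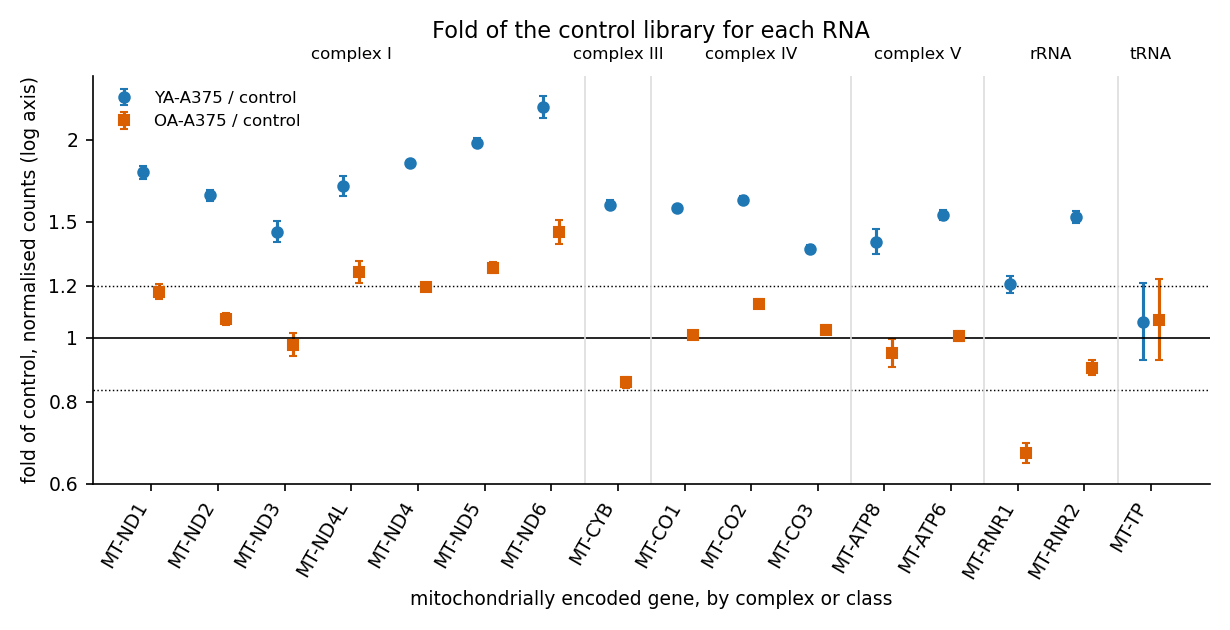
Fold of the control library on a log axis for the 16 RNAs that passed the filter, with 95% counting intervals as bars, blue circles for YA-A375 and orange squares for OA-A375; dotted lines mark 1.2-fold in each direction and the solid line marks 1. The YA-A375 folds of the mRNAs lie between 1.37 and 2.24, the OA-A375 folds between 0.856 and 1.45, and the fold of MT-RNR1 in OA-A375 is the lowest at 0.669.

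Complex I, which takes electrons from NADH, contributed 7 of the mRNAs. MT-ND1, which lies next to the rRNAs on the heavy-strand precursor, had 10980 counts in control, 19514 in YA-A375 and 10825 in OA-A375. MT-ND2 had 16411, 26940 and 14709 counts in the same order. Both were higher in YA-A375, by 1.78-fold (1.74 to 1.82) for MT-ND1 and 1.65-fold (1.61 to 1.68) for MT-ND2. In OA-A375 they stood at 1.17-fold (1.14 to 1.21) and 1.07-fold (1.04 to 1.09) of control, short of the threshold. MT-ND3, one of the shortest mRNAs at 346 bases, had 5182 counts in control, 7490 in YA-A375 and 4245 in OA-A375, which gave 1.45-fold (1.40 to 1.502) in YA-A375 and 0.976-fold (0.937 to 1.02) in OA-A375.

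MT-ND4L and MT-ND4 are read from 1 bicistronic mRNA. MT-ND4L had 5005 counts in control, 8480 in YA-A375 and 5293 in OA-A375, and MT-ND4 had 50164, 92248 and 50268. Against control, MT-ND4 was 1.84-fold (1.82 to 1.86) in YA-A375 and 1.19-fold (1.18 to 1.21) in OA-A375, just inside the threshold. MT-ND4L was 1.70-fold (1.64 to 1.76) in YA-A375 and 1.26-fold (1.21 to 1.31) in OA-A375. Within a library the ratio of MT-ND4L to MT-ND4 counts, which no scaling can alter, was 0.0998 in control, 0.0919 in YA-A375 and 0.105 in OA-A375. It was therefore lowest in YA-A375, at 0.921 of the control ratio (0.888 to 0.956).

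MT-ND5 and MT-ND6 abut end to end on opposite strands, with 0 bases between their annotated ends. MT-ND5 had 21097 counts in control, 41639 in YA-A375 and 22628 in OA-A375, or 1.98-fold (1.95 to 2.01) and 1.28-fold (1.25 to 1.30) of control. MT-ND6 had 3853, 8618 and 4681 counts, or 2.24-fold (2.16 to 2.33) and 1.45-fold (1.39 to 1.51) of control. MT-ND6 mRNA is known for carrying little or no poly(A) tail. This pair had the largest folds of the 13 mRNAs in both secretomes. Whether strand was used in counting is not given in the sources used here, so reads of MT-ND6 and reads antisense to the heavy-strand precursor cannot be told apart. Summed over the 7 genes, complex I mRNA was 1.82-fold (1.81 to 1.84) in YA-A375, 1.19-fold (1.18 to 1.201) in OA-A375 and 1.53-fold (1.52 to 1.54) higher in YA-A375 than in OA-A375.

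Complex III has a single mitochondrially encoded subunit, cytochrome b, from MT-CYB. It had 26837 counts in control, 42636 in YA-A375 and 19279 in OA-A375. The OA-A375 library was the low one, at 0.856-fold (0.840 to 0.872) of control, while YA-A375 was at 1.59-fold (1.57 to 1.62). MT-CYB thus had the lowest OA-A375 fold of the mRNAs and the largest fold between the secretomes, 1.86 (1.83 to 1.89).

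The 3 core subunits of complex IV, cytochrome c oxidase, come from MT-CO1, MT-CO2 and MT-CO3. MT-CO1 had 72680 counts in control, 114024 in YA-A375 and 61686 in OA-A375, and by counts it ranked 6, 2 and 6 among all genes of the library. Its fold was 1.57 (1.56 to 1.59) in YA-A375 and 1.01 in OA-A375. MT-CO2 had 27919, 45078 and 26422 counts, with folds of 1.62 (1.60 to 1.64) in YA-A375 and 1.13 (1.11 to 1.15) in OA-A375. MT-CO3 had 34900, 47537 and 30115 counts and the lowest YA-A375 fold of the mRNAs, 1.37 (1.35 to 1.39), beside 1.03 (1.01 to 1.04) in OA-A375. The ratio of MT-CO3 to MT-CO1 was 0.480 in control, 0.417 in YA-A375 and 0.488 in OA-A375, lowest in YA-A375. The summed complex IV mRNA was 1.53-fold (1.52 to 1.54) in YA-A375 and 1.04-fold (1.03 to 1.05) in OA-A375.

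Complex V, the ATP synthase, takes MT-ATP8 and MT-ATP6 from the mitochondrial genome. MT-ATP6, a subunit of the proton channel, had 23601 counts in control, 36132 in YA-A375 and 19936 in OA-A375, giving 1.54-fold (1.51 to 1.56) and 1.01-fold (0.987 to 1.03) of control. MT-ATP8 had 3554, 4958 and 2831 counts, giving 1.40-fold (1.34 to 1.46) and 0.949-fold (0.903 to 0.997). Both stood near the control level in OA-A375, and their sum there was 0.999-fold (0.981 to 1.02). The ratio of MT-ATP8 to MT-ATP6 was 0.151 in control, 0.137 in YA-A375 and 0.142 in OA-A375.

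MT-ATP6 is the member whose counts are most exposed to a nuclear copy. MTATP6P1 (chr1:633696-634376, plus strand, a pseudogene) differs from MT-ATP6 at 10 of 681 aligned bases, an identity of 98.5%, and took 9256 counts in control, 13956 in YA-A375 and 8320 in OA-A375. That is 39.2%, 38.6% and 41.7% of the MT-ATP6 count. The first 90 bases of each show how little there is to tell reads apart, with the 1 base that differs in this window in capitals.
MT-ATP6: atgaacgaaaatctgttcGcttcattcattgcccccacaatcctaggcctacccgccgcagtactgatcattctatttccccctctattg
MTATP6P1: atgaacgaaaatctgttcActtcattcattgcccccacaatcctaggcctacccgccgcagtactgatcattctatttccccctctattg

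Adding the counts of both left the MT-ATP6 fold close to its own value, at 1.53 (1.51 to 1.55) in YA-A375 and 1.02 (1.01 to 1.04) in OA-A375. The other copies on the same stretch of chromosome 1 took far less. MTND2P28 (98.4% identical to MT-ND2) had 672 counts in control, 975 in YA-A375 and 591 in OA-A375, between 3.62% and 4.09% of MT-ND2. MTCO1P12 (98.7% identical to MT-CO1) had 310, 440 and 244 counts, under 0.43% of MT-CO1 in each library. MTND4P12 on chromosome 5, 95.7% identical to MT-ND4, had 147, 289 and 229 counts, or 1.96-fold (1.61 to 2.42) in YA-A375 and 1.85-fold (1.502 to 2.30) in OA-A375. Of 405 annotated nuclear copies, 12 passed the filter, of which 9 were higher and 0 lower in YA-A375 and 7 higher and 0 lower in OA-A375. Over all tested genes, 17.4% were called higher and 16.4% lower in YA-A375, and 21.1% higher and 21.5% lower in OA-A375. How reads that match several places were assigned is not given in the sources used here, so the copies' counts and those of the mitochondrial genes cannot be fully separated.

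The rRNAs were compared next. MT-RNR1, the RNA of the small mitoribosomal subunit (chrM:648-1601), had 8204 counts in control, 9863 in YA-A375 and 4604 in OA-A375. MT-RNR2, that of the large subunit (chrM:1671-3229), had 13337, 20283 and 10088. Per length they were alike in control, at 401 and 399 CPM per kilobase, and apart in YA-A375 at 485 and 611 and in OA-A375 at 267 and 358. Both lay below all mRNAs but MT-ND6, and in YA-A375 and OA-A375 below MT-ND6 as well. Ribosomal RNA is the most abundant RNA of mitochondria and carries at most a very short tail, so these levels need not follow its amount in the cell. The part of poly(A) selection in them was not tested.

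Both rRNAs were called higher in YA-A375, MT-RNR1 by 1.21-fold (1.17 to 1.24) and MT-RNR2 by 1.53-fold (1.49 to 1.56), although the MT-RNR1 interval reached below the threshold. In OA-A375 MT-RNR1 was lower, at 0.669-fold (0.645 to 0.693), and MT-RNR2 stood at 0.901-fold (0.878 to 0.925). Between the secretomes they had folds of 1.804 (1.74 to 1.87) for MT-RNR1 and 1.69 (1.65 to 1.73) for MT-RNR2, higher in YA-A375. The summed rRNA was 1.40-fold (1.38 to 1.43) in YA-A375 and 0.812-fold (0.796 to 0.830) in OA-A375, so the rRNA of OA-A375 lay below control where its summed mRNA lay at 1.08-fold.

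**Figure D3:**
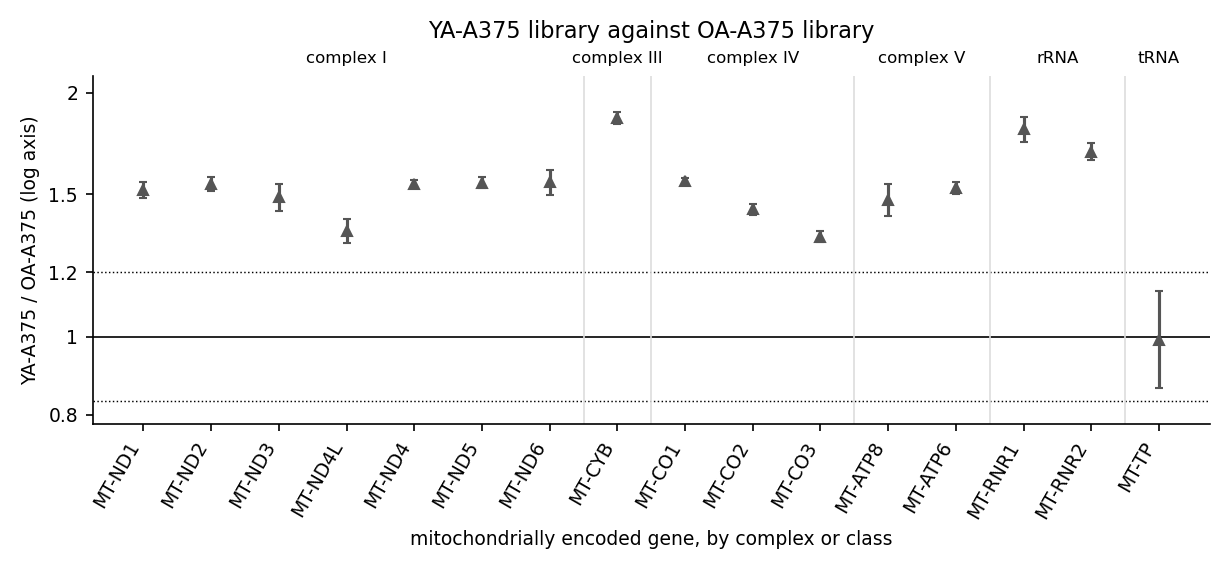
Ratio of the YA-A375 to the OA-A375 library on a log axis for the 16 RNAs that passed the filter, with 95% counting intervals as bars; the solid line marks 1 and the dotted lines 1.2-fold in each direction. All mRNAs and rRNAs lie above 1.2, from 1.33 for MT-CO3 to 1.86 for MT-CYB, and the interval of MT-TP spans 1.

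Of the 22 tRNAs, 18 had 0 counts in every library. At these depths a count of 0 allows a level of up to 0.140 CPM in control, 0.141 in YA-A375 and 0.166 in OA-A375, from counting error alone. The tRNA genes are 59 to 75 bases long and mature tRNAs carry no poly(A) tail, and whether either bears on the zeros was not tested. MT-TF had 1 count in control and 0 in the others, MT-TC had 3, 1 and 0 counts, and MT-TY had 1 count in OA-A375 only. Against this near absence, MT-TP, the proline tRNA, had 428 counts in control, 451 in YA-A375 and 383 in OA-A375.

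MT-TP (chrM:15956-16023, minus strand) is printed with its neighbour MT-TT (chrM:15888-15953, plus strand), the threonine tRNA, which had 0 counts. The genes are 2 bases apart, and MT-TT follows MT-CYB with 0 bases between them. MT-TP lies opposite the heavy-strand precursor, at the edge of the control region, and its reads and those of the other strand cannot be told apart here.
MT-TP: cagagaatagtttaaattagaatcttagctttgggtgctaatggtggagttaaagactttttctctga
MT-TT: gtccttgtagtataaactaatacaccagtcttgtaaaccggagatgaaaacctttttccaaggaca

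The MT-TP counts gave 1.06-fold (0.924 to 1.21) in YA-A375, 1.07-fold (0.926 to 1.23) in OA-A375 and 0.991-fold (0.863 to 1.14) between the secretomes, so no difference was detectable at this depth. Relative to the summed mRNA of its own library MT-TP was 0.00142 in control, 0.000911 in YA-A375 and 0.00140 in OA-A375. In YA-A375 that ratio was 0.643 of control (0.563 to 0.734), and in OA-A375 it was 0.991 of control (0.863 to 1.14).

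Ratios of members within a library do not depend on how libraries are scaled against each other, and several of them differed by more than counting error. The ratio of summed mRNA to summed rRNA was 14.0 in control, 16.4 in YA-A375 and 18.6 in OA-A375. It was higher than control in both secretomes, by 1.17-fold (1.15 to 1.19) and 1.32-fold (1.30 to 1.35). The ratio of MT-RNR2 to MT-RNR1 was 1.63, 2.06 and 2.19, again lowest in control.

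Complex I mRNA was higher relative to complex IV mRNA in both secretomes than in control. The ratio of their summed counts was 0.832 in control, 0.992 in YA-A375 and 0.953 in OA-A375, which is 1.19-fold (1.18 to 1.204) and 1.15-fold (1.13 to 1.16) of control. Between YA-A375 and OA-A375 it differed by 1.04-fold (1.03 to 1.05).

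Against the 12 other mRNAs summed and against MT-ND5, MT-ND6 stood alike in both secretomes to within counting error, though not against MT-CYB. Its ratio to the 12 other mRNAs was 0.0129 in control, 0.0177 in YA-A375 and 0.0175 in OA-A375. Against control that was 1.37-fold (1.32 to 1.42) in YA-A375 and 1.35-fold (1.29 to 1.41) in OA-A375, values that share the control library. Between YA-A375 and OA-A375 the ratio differed by 1.01-fold (0.979 to 1.05), an interval that holds 1. The ratio of MT-ND6 to MT-ND5 was 0.183 in control and 0.207 in each secretome library, with 1.00 (0.962 to 1.04) between the secretomes.

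MT-CYB stood the other way against MT-ND5, the mRNA upstream of it on the same strand. Its ratio to MT-ND5 was 1.27 in control, 1.02 in YA-A375 and 0.852 in OA-A375, so that it was lowest in OA-A375. Against control the ratio was at 0.805 (0.787 to 0.823) in YA-A375 and 0.670 (0.652 to 0.688) in OA-A375. As shares of all mitochondrial mRNA counts, MT-CYB took 8.88% in control, 8.61% in YA-A375 and 7.06% in OA-A375, whereas MT-ND5 took 6.98%, 8.41% and 8.29%.

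**Figure D4:**
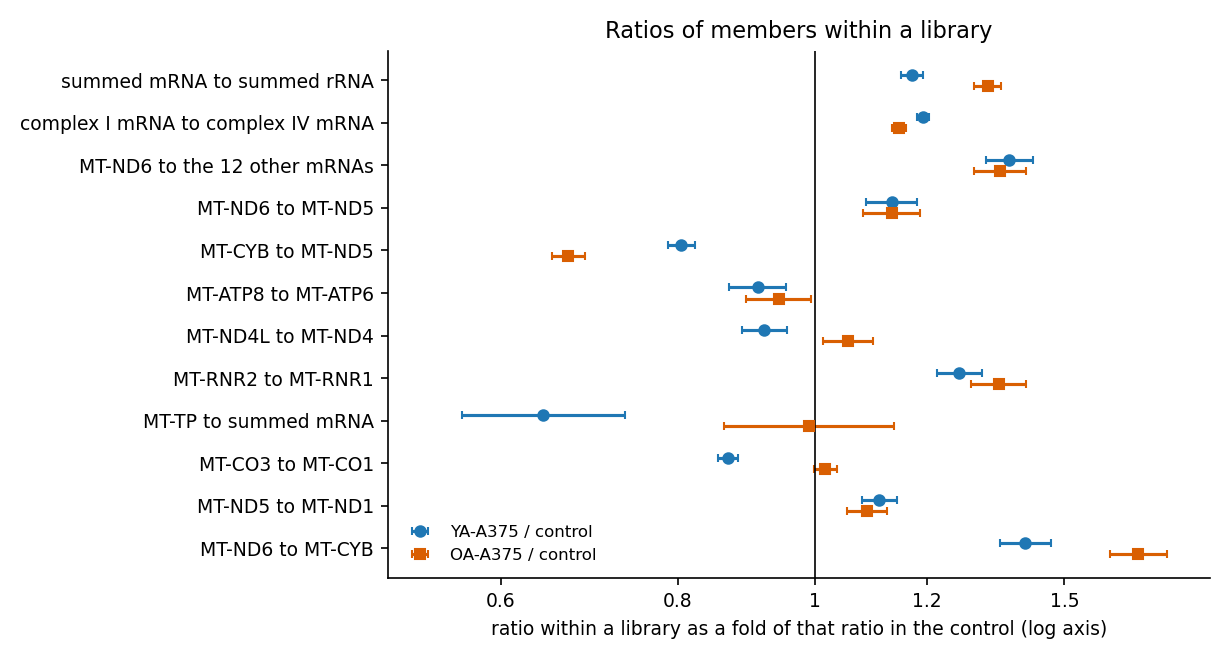
Ratios between members within a library, as a fold of the same ratio in control on a log axis, with 95% counting intervals as bars, blue circles for YA-A375 and orange squares for OA-A375. MT-CYB to MT-ND5 lies below 1 in both secretomes, MT-ND6 to the 12 other mRNAs lies at 1.37 and 1.35, and MT-TP to summed mRNA is low in YA-A375 at 0.643 with its OA-A375 interval spanning 1.

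Position, length and stop codon were set beside the folds. Over the 12 mRNAs of the plus strand, the rank correlation of log2 fold change with the start position was 0.15 in YA-A375 against control, 0.04 in OA-A375 against control and 0.22 between YA-A375 and OA-A375. With gene length it was 0.53, 0.31 and 0.77, longer genes having the larger folds, and with mean count 0.13, 0.16 and 0.37. These are descriptions over 12 genes that share their libraries and partly their precursor and reads. The 6 mRNAs whose stop codon the tail completes had YA-A375 folds of 1.37 to 1.84 with a median of 1.62, and the 7 with a full codon had 1.40 to 2.24 with a median of 1.62. In OA-A375 the ranges were 0.856 to 1.19 and 0.949 to 1.45, and they overlapped as well.

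The nuclear genes that serve the mitochondrial genome were read from lists drawn up by their known roles, beside the shares of all tested genes given above for each comparison. Of 10 genes of mitochondrial transcription, 3 were higher and 0 lower in YA-A375, and 2 higher and 1 lower in OA-A375. The median log2 fold change was -0.15 and -0.03. POLRMT, the polymerase, had 1387 counts in control, 1731 in YA-A375 and 1726 in OA-A375, or 1.25-fold (1.17 to 1.34) and 1.48-fold (1.38 to 1.59). It was further from control in the OA-A375 library, and its relation to the levels of the mitochondrial mRNAs was not tested. TFAM, which packages and bends mitochondrial DNA, had 1676, 1440 and 1275 counts, or 0.862-fold (0.803 to 0.925) and 0.906-fold (0.842 to 0.975). TFB2M, the initiation factor, had 1342, 1130 and 1011 counts, or 0.845-fold (0.780 to 0.915) and 0.898-fold (0.826 to 0.974). TFB1M, an rRNA methyltransferase kept on this list for its family, had 900, 1189 and 682 counts and was higher in YA-A375 than in control, by 1.32-fold (1.21 to 1.45), and than in OA-A375, by 1.47-fold (1.33 to 1.62).

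Of 18 genes of mitochondrial DNA maintenance, 17 passed the filter, with 2 higher and 0 lower in YA-A375 and 3 higher and 0 lower in OA-A375. POLG, the catalytic subunit of the mitochondrial DNA polymerase, had 1015 counts in control, 1430 in YA-A375 and 1171 in OA-A375, or 1.41-fold (1.30 to 1.53) and 1.37-fold (1.26 to 1.496). Its accessory subunit POLG2 had 357, 518 and 325 counts, with 1.45-fold (1.27 to 1.67) in YA-A375 and 1.08-fold (0.930 to 1.26) in OA-A375. The helicase TWNK, listed as C10orf2, had 1438, 1245 and 1049 counts, or 0.868-fold (0.804 to 0.937) and 0.869-fold (0.802 to 0.942). The number of mitochondrial genomes was not measured in these libraries.

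RNA processing and decay were represented by 21 genes, of which 3 were higher and 0 lower in YA-A375 and 4 higher and 3 lower in OA-A375. LRPPRC, which with SLIRP binds and stabilises mitochondrial mRNAs, had 6594 counts in control, 6416 in YA-A375 and 4520 in OA-A375. It stood at 0.976-fold (0.943 to 1.01) in YA-A375 and was lower in OA-A375 at 0.817-fold (0.786 to 0.848). SLIRP, its partner, had 971, 878 and 996 counts and lay on the opposite side in OA-A375, at 1.22-fold (1.12 to 1.34), beside 0.907-fold (0.827 to 0.995) in YA-A375. FASTK had 613, 803 and 722 counts and was higher in both, by 1.31-fold (1.18 to 1.46) and 1.40-fold (1.26 to 1.57). It belongs to a family of mitochondrial RNA-binding proteins, and its mitochondrial form is known for stabilising MT-ND6 mRNA. ELAC2, which cuts precursors at the 3′ ends of tRNAs, had 2964, 3122 and 3259 counts and was higher in OA-A375 by 1.31-fold (1.25 to 1.38). FASTKD2 (734, 634 and 761 counts) and PTCD1 (54, 87 and 24 counts) differed between YA-A375 and OA-A375, at 0.702-fold (0.630 to 0.780) and 2.98-fold (1.92 to 5.02).

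Of 18 genes that modify mitochondrial rRNA and tRNA, 0 were higher and 2 lower in YA-A375, and 1 was higher and 2 lower in OA-A375. QTRT1, which puts queuosine into tRNA, had 874, 941 and 572 counts and was 1.38-fold (1.25 to 1.54) higher in YA-A375 than in OA-A375. Of 77 mitochondrial ribosomal protein genes that passed the filter among 78, 0 were higher and 9 lower in YA-A375, and 8 higher and 3 lower in OA-A375. Their median log2 fold change was -0.07 and 0.05. MRPS6, of the small subunit, was furthest from control in YA-A375, with 818 counts in control, 482 in YA-A375 and 806 in OA-A375, or 0.592-fold (0.527 to 0.662) and 1.17-fold (1.06 to 1.30). Between YA-A375 and OA-A375, 2 of the 77 were higher and 22 lower in YA-A375, MRPS6 at 0.504-fold, MRPL33 at 0.666-fold and MRPL36 at 0.720-fold among them. In OA-A375 against control MRPL36 was at 1.42-fold (1.25 to 1.61) and MRPL24 at 1.36-fold (1.28 to 1.44).

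Nuclear genes of the respiratory chain and ATP synthase were listed by gene name, most of them for subunits of the complexes that hold the 13 mitochondrial products. The list also takes in complex II, which has no mitochondrially encoded subunit, with genes such as SDHA and SDHB, and relatives such as NDUFA4L2. Of the 80 listed genes 77 passed the filter, with 3 higher and 9 lower in YA-A375 and 9 higher and 7 lower in OA-A375. In YA-A375 against OA-A375, 5 were higher and 12 lower. Their median log2 fold change was -0.07 in YA-A375 and 0.05 in OA-A375, beside 0.70 and 0.09 for the mitochondrially encoded mRNAs. NDUFA4L2, a hypoxia-inducible paralogue of a complex IV subunit, had 26 counts in control, 132 in YA-A375 and 71 in OA-A375, the highest fold of the list at 4.93 (3.33 to 8.08) and 3.16 (2.05 to 5.31). ATP5E, a small subunit of the ATP synthase, had 4900, 4347 and 2884 counts and was lower in OA-A375 at 0.701-fold (0.669 to 0.734). NDUFA1, of complex I, had 1351, 1096 and 1272 counts and was lower in YA-A375 than in OA-A375, at 0.726-fold (0.669 to 0.787). NDUFV2 (11, 37 and 21 counts), NDUFC2 (64, 32 and 42), NDUFA13 (40, 64 and 16) and ATP5I (85, 70 and 117) were also past the threshold by their whole interval in at least 1 comparison, and at such counts their folds are loose.

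**Figure D5:**
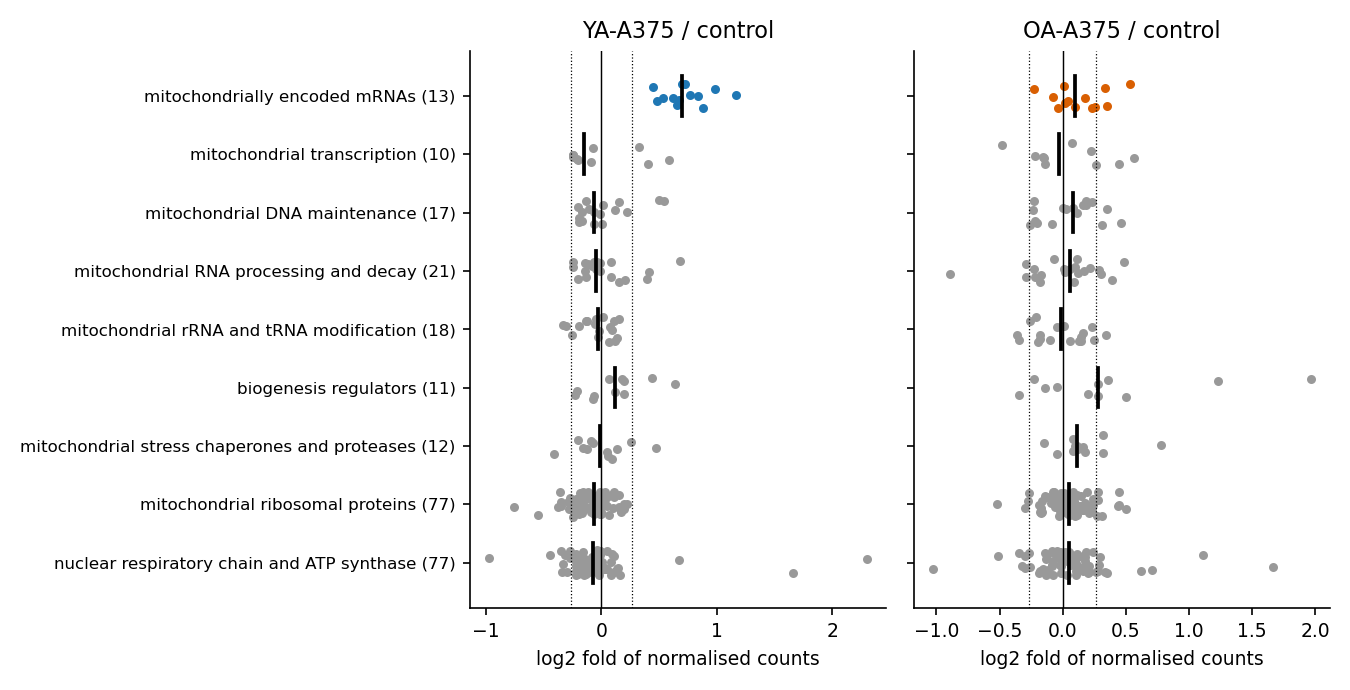
Log2 fold change against control of each gene, in the YA-A375 library on the left and the OA-A375 library on the right, for the 13 mitochondrially encoded mRNAs (coloured) and the lists of nuclear genes (grey), with the number of genes in brackets. Thick bars are medians and dotted lines mark 1.2-fold; the mRNA median is 0.70 in YA-A375 and 0.09 in OA-A375, and the list medians lie between -0.15 and 0.28.

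Among 11 regulators of mitochondrial biogenesis, 2 were higher and 0 lower in YA-A375, and 6 higher and 1 lower in OA-A375. PPARGC1A had 16 counts in control, 22 in YA-A375 and 55 in OA-A375. Its fold was 1.36 (0.692 to 2.81) in YA-A375, not detectable at this depth, and 3.90 (2.31 to 7.66) in OA-A375. Its relatives PPARGC1B, with 157, 244 and 310 counts, and PPRC1, with 2377, 2718 and 2823 counts, were ordered in the same way. PPARGC1B was at 1.56-fold (1.27 to 1.92) in YA-A375 and 2.34-fold (1.94 to 2.87) in OA-A375, and PPRC1 at 1.15-fold (1.09 to 1.21) and 1.41-fold (1.34 to 1.49). All 3 coactivators were highest in OA-A375, and all 13 mitochondrial mRNAs were highest in YA-A375. Whether their levels are linked was not tested.

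Of 12 chaperones and proteases of mitochondrial stress, 1 was higher and 1 lower in YA-A375, and 3 were higher and 0 lower in OA-A375. LONP1, a matrix protease, had 4617, 6373 and 4823 counts, at 1.38-fold (1.33 to 1.44) in YA-A375 and 1.24-fold (1.19 to 1.30) in OA-A375. The matrix chaperone HSPA9 had 10436, 11458 and 10934 counts and was at 1.25-fold (1.21 to 1.28) in OA-A375. HSPE1, the co-chaperonin, had only 87, 65 and 126 counts and several processed pseudogenes, and its OA-A375 fold of 1.72 (1.30 to 2.29) is uncertain.

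Replication-dependent histone mRNAs, most of which end without a poly(A) tail, were set beside the mitochondrial rRNAs and MT-TP. Whether the histone transcripts counted here carried tails was not measured. The 86 listed genes, some of them named as pseudogenes, summed to 1499 counts in control, 1129 in YA-A375 and 1876 in OA-A375. That was 0.755-fold and 1.49-fold of control. HIST1H1C, with 223, 141 and 553 counts, and HIST1H2BK, with 234, 172 and 417, made up much of the sum, while HIST1H4I had 25, 33 and 53 counts and HIST1H1E had 37, 35 and 7. Of the 13 that passed the filter, 3 were higher and 8 lower in YA-A375, and 5 higher and 3 lower in OA-A375. The shares over all tested genes were 17.4% higher and 16.4% lower in YA-A375, and 21.1% higher and 21.5% lower in OA-A375. The summed histones were lowest in YA-A375 and highest in OA-A375, the opposite order to the mitochondrial rRNAs. HIST1H1C and HIST1H2BK shared that order and made up much of the OA-A375 sum, whereas other genes, such as HIST1H4I and HIST1H1E, did not. The part of poly(A) selection in either order was not tested.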

How the data were processed

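Poly(A) RNA of A375 cells was sequenced from 1 library each of control, YA and OA, grouped by the treatment and title labels. The deposited table holds raw counts, which the authors left unnormalised. STAR 2.5.1b, featureCounts, R 3.6.1 and the build hg38 stand in the submitters' processing notes. The annotation release, the use of strand and the treatment of multi-mapping reads are not given in the sources used here. The study's methods name DESeq2 and a cutoff of 1.2, read here as a linear fold.

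Counts were divided by DESeq2 1.42.0 size factors in R 4.3.3. The factors came to 1.06 (control), 1.06 (YA) and 0.891 (OA). A fold was the ratio of normalised counts after a pseudocount of 1, with a 95% Clopper-Pearson interval, and changes in ratios within a library had odds-ratio intervals by normal approximation. Shares had Wilson intervals, of which none is printed. No molecular identifiers are described, and PCR duplicates are not separate molecules. Intervals, and the floor of 3 counts, therefore describe counting error alone. Sums and calls used Python 3.11.15, numpy 2.4.6, pandas 2.3.3 and scipy 1.17.1. The procedure was tested on simulated counts, which held counting error but no other spread between libraries. Positions, lengths and sequences came from GENCODE release 29 on GRCh38, the build that hg38 also names. Nuclear copies were aligned to their mitochondrial genes end to end.

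The members and the gene lists were chosen with earlier results of these data known. The genes named are all 37 members, POLRMT, TFAM, TFB2M, LRPPRC, SLIRP, POLG, TWNK and PPARGC1A, and in each list and comparison up to 3 genes whose interval lay wholly beyond 1.2-fold, those with the largest change. One melanoma lineage marker, and the totals of that marker list, are not reported here. The percent identities of the copies were added after the counts had been seen. Alternatives were scaling by TMM (edgeR 4.0.16), by total counts and by counts outside the mitochondrial genes, a pseudocount of 5, other thresholds, no filter or a minimum mean of 100, and other denominators for shares. Without replicates the quasi-likelihood test of edgeR could not be run.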

Additional observations from a re-analysis of the deposited data

How the results depend on the processing

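With 1 library per group, none of the differences has a replicate check, and depth limits chiefly MT-TP and the other tRNAs. No paired analysis was possible because each group has a single library. Over 18 results, 81 alternative values were computed, of which 64 stayed within the counting interval or within 1.5 times the count and no difference past the threshold changed direction. The summed tRNA log2 fold change of YA against OA, -0.01 with an interval that held 0, was 0.012 with scaling by counts outside the mitochondrial genes. The other 17 were as follows. At a 2-fold threshold 1 mRNA of 13 was higher in YA against control, 0 in OA against control and 0 in YA against OA, and at a log2 fold change of 1.2 the counts were 0, 0 and 0. The summed mRNA log2 fold change of YA against control, 0.72, became 0.74 with scaling by counts outside the mitochondrial genes. That of OA against control, 0.11, became 0.092 with TMM. That of YA against OA, 0.61, became 0.62 with TMM, 0.62 with total counts and 0.64 with counts outside the mitochondrial genes. Mitochondrial genes took 1.54% (control), 2.51% (YA) and 1.62% (OA) of the counts over protein-coding and mitochondrial counts only, and 1.58%, 2.57% and 1.65% without the 10 most abundant nuclear genes, against 1.51%, 2.47% and 1.59%.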
